A study of Danio rerio with 19 samples.

Results

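The comparison described here sets zebrafish embryos at the 1k-cell stage against eggs, which the labels list as gametes, with 1 poly(A)-selected RNA library each, both of the Tubingen strain with no treatment or mutation named. Its members are the 10685 gene names, of 14244 in the tables, that reached at least 10 normalized counts in either library. They were joined by name, and a name with several entries was represented by the entry with the highest total. The series also holds RNA libraries of germ ring embryos and of sperm, together with genome-wide profiles of cytosine methylation and hydroxymethylation through cleavage, 19 samples in all. Germ ring levels are given below only as the next stage, beside values of the 2 libraries compared. RNA was taken from homogenized whole embryos, per the labels' protocols, so each library is an average over all cells of its sample, and the number of eggs or embryos pooled is not given in the sources used here.

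A fish egg is loaded during oogenesis with the RNA that runs fertilization and the cleavage divisions. At the 1k-cell stage, at about the midblastula transition, the embryo has divided synchronously with little transcription of its own and is starting the broad activation of its genome, while maternal messages begin to be cleared by deadenylation. Cleavage-stage control of maternal messages is known to work largely through poly(A) tail length and RNA-binding proteins. The library preparation captured RNA with poly-T beads, so a longer tail and more molecules of an RNA cannot be told apart in these values, and neither can fewer cells and less RNA per cell.

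The deposited values are read counts per gene multiplied by 1 factor per library, called normalized counts here, and they are not divided by gene length. Recovered reads numbered 24256918 in the 1k-cell library and 9241829 in the egg library, so 3 reads stand for 2.85 normalized counts in the 1k-cell library and 5.95 in the egg library, and low values are less certain in egg. With 1 library per stage there is no replicate check, and neither tests nor p-values are given. Ratios carry, in parentheses, a 95% exact (Clopper-Pearson) interval of their read counts, which covers counting error only. The egg library holds RNA of genes that mark skin. Of 19 epidermis markers compared, 16 were lower in 1k-cell embryos by 2-fold or more, beside 12.5% of all genes, and none was higher. All 19 reached 10 normalized counts in egg and 10 of them did in 1k-cell embryos. The rest entered the comparison through egg alone, so their direction was set by the filter. Of the 26 such markers found in the tables, 12 lacked reads in 1k-cell embryos, against 4 in egg; the ones lacking reads in 1k-cell embryos included krt15, cldni, cldna and cldnf. Their summed level was 2466 normalized counts at the 1k-cell stage (0.0110% of that library) and 135730 in egg (0.760%), of which krt5 alone had 109093. Of 15 immune cell markers, 9 were lower, with a summed level of 617 at the 1k-cell stage and 5986 in egg. Here too all 15 reached 10 normalized counts in egg, and 10 did in 1k-cell embryos. Of the 22 found, 5 lacked reads in 1k-cell embryos and 3 in egg. The part of these cells in the results below was not tested.

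As deposited, levels were higher for most genes in the 1k-cell library than in egg. The median gene had 2.37 times its egg level (log2 ratio 1.24), and the interquartile range of the log2 ratio ran from -0.12 to 2.62. At 2-fold or more, 5840 genes (54.7%) were higher at the 1k-cell stage, 1338 (12.5%) were lower and 3507 (32.8%) lay within 2-fold. The general shift rests on the scaling. Rescaling by the median of ratios moved log2 ratios by -1.11 (by less for genes near 0, owing to the pseudocount), which brought the median to 0.059 and left 3545 of 10718 genes higher (33.1%) and 3260 lower (30.4%). A gene is therefore called higher or lower below only where it passed 2-fold under both scalings, which held for 3545 genes (33.2%) and for 1338 genes (12.5%); genes that passed only as deposited are named as such, medians of gene lists are read against 1.24, and counts of list members against these 2 shares. Rescaling lowered every ratio, so each gene that was lower as deposited passed again, and the second scaling is no check on lower calls. "Within 2-fold" below refers to the deposited values, and many such genes lay more than 2-fold below egg after rescaling. Besides the extremes of each list, genes were picked as examples after their values were seen.

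The ratio changed with the level of the gene. Genes with a geometric mean of 128 to 512 normalized counts over both libraries had a median log2 ratio of 1.94, and 69.9% of them were at least 2-fold higher as deposited. Among the 424 genes above 8192 the median was -0.24 and 13.0% were higher. The most abundant 100 genes held 14.3% of all counts at the 1k-cell stage and 25.9% in egg, and the most abundant 10 held 2.42% at the 1k-cell stage and 6.61% in egg. The egg library was thus concentrated on fewer messages. There were 1606 genes with a ratio of at least 10-fold in favour of the 1k-cell stage and 393 with at least 10-fold in favour of egg. No read was recovered in egg for 304 genes, whose 1k-cell levels had a median of 21.9 and reached 349, and 157 genes lacked reads in 1k-cell embryos and had egg levels with a median of 29.8 and reached 2403.

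**Figure D1:**
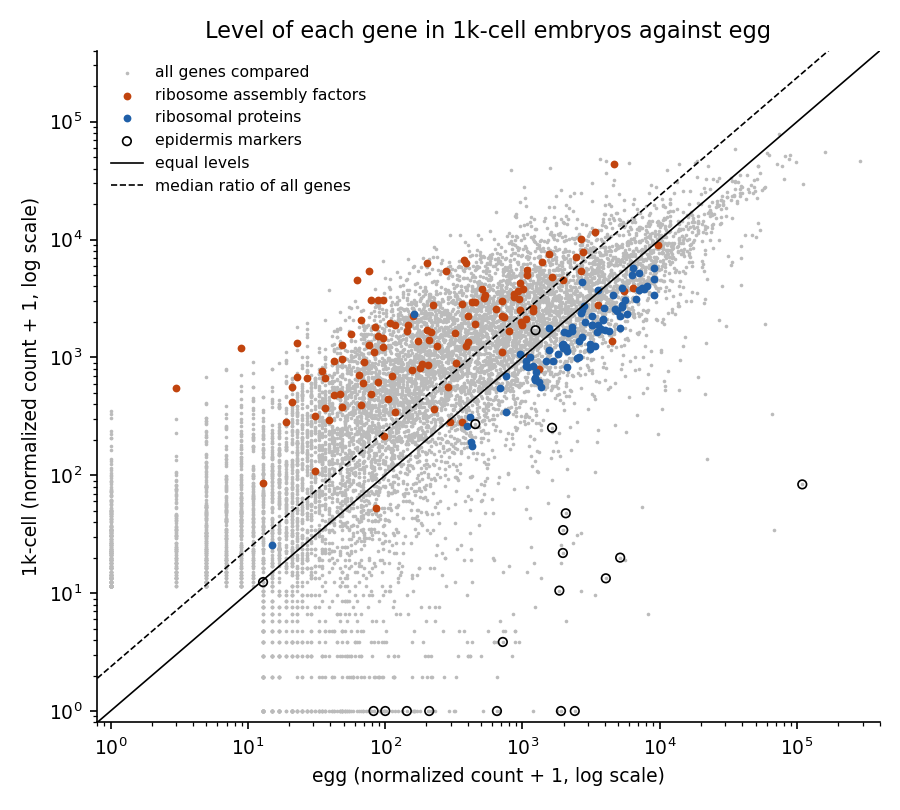
Each grey point is 1 of the 10685 genes compared, with its level in the 1k-cell library on the vertical axis and in the egg library on the horizontal axis (normalized count + 1, log scales); the solid line marks equal levels and the dashed line the median ratio of 2.37. Ribosome assembly factors (orange) lie mostly above the dashed line, ribosomal proteins (blue) lie below the solid line in most cases, and epidermis markers (open circles) fall far below it.

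Gene lists by function, chosen with earlier results of these data known, differed widely in median ratio. Members of the ribosome assembly list had a median log2 ratio of 2.64, the Polycomb and Trithorax list 2.02 and the chaperone list 1.57. Lists for the spliceosome, for cyclins and cell cycle kinases and for maternal-effect genes had medians of 0.13, 0.10 and 0.09. The ribosomal protein list stood at -0.77 and the keratin, claudin and junction list at -2.66. Members of 1 list spread widely, so they are described by role below.

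**Figure D2:**
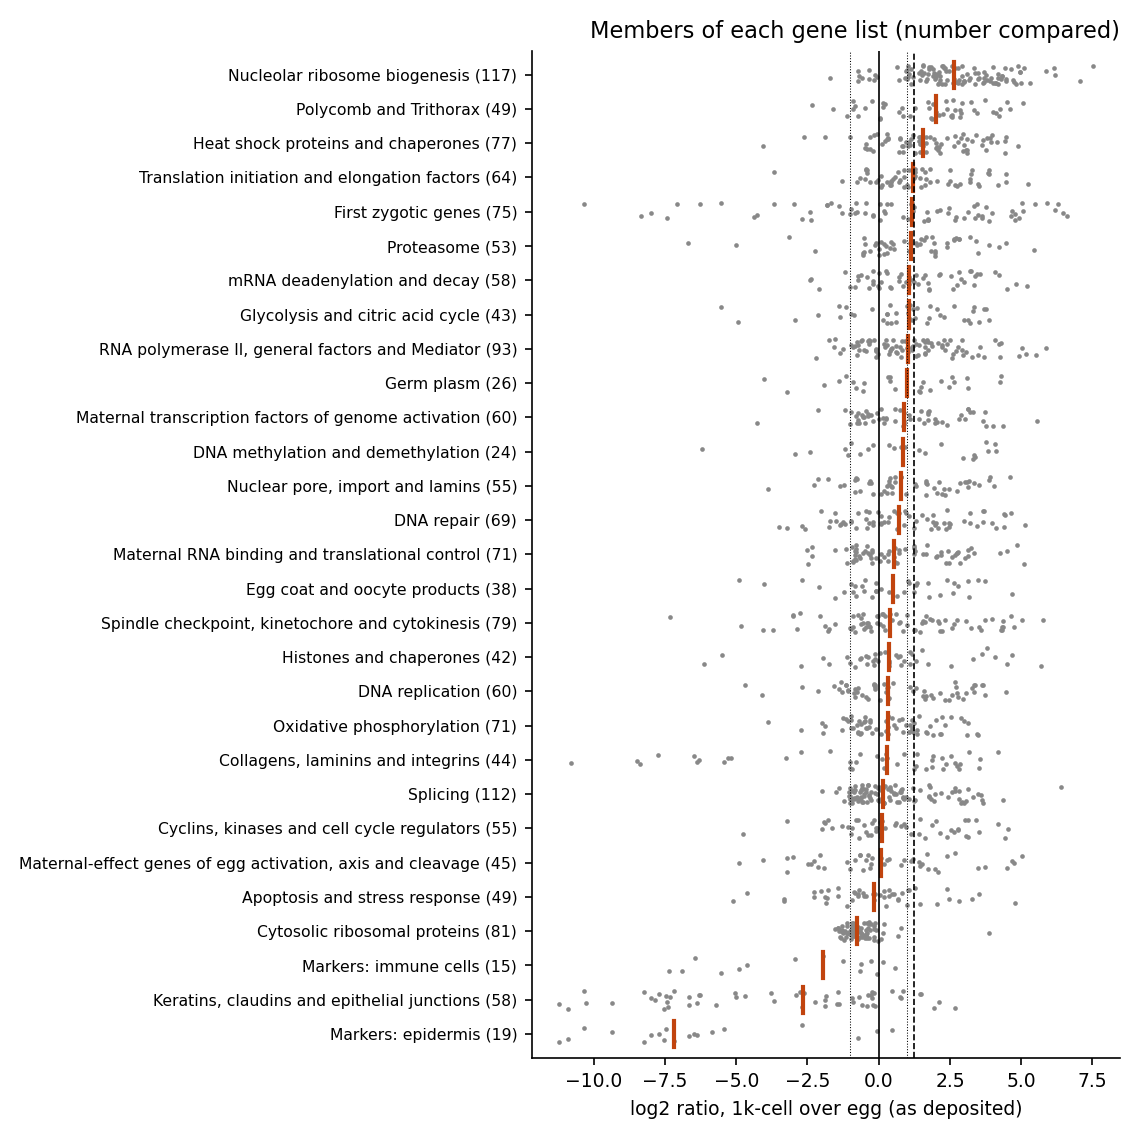
Points are the log2 ratios (1k-cell over egg, as deposited) of the members of each list with at least 15 members compared, orange bars are the list medians, the dashed line is the median of all genes (1.24), the solid line equal levels and the dotted lines 2-fold. The ribosome assembly list has the highest median and the epidermis marker list the lowest.

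Ribosome assembly factors, the proteins that cut, modify and fold ribosomal RNA in the nucleolus, were higher at the 1k-cell stage as a list. Of 117 members compared, 102 were at least 2-fold higher as deposited (87.2%, beside 54.7% of all genes). Under both scalings 72 were higher (61.5%, beside 33.2%) and 1 was lower (0.855%, beside 12.5%). The list median was 1.40 above that of all genes on the log2 scale. The median member had 1661 normalized counts at the 1k-cell stage and 216 in egg, and the list as a whole took 1.41% of the 1k-cell library and 0.495% of the egg library. The difference was also there among genes of like level. The 47 members with a mean of 512 to 2048 had a median log2 ratio of 2.16, beside 1.42 for all 2679 genes in that range, and the 41 members between 128 and 512 had 3.48, beside 1.94 for 2282 genes.

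The steps of the pathway shared this pattern unevenly. The small-subunit processome assembles on the nascent transcript. In it and in 40S maturation, 28 of 41 members were higher (68.3%, beside 33.2% of all genes) and none was lower. Heatr1 had 547 normalized counts at the 1k-cell stage and 1.98 in egg, which is a single egg read, so its ratio of 275 has an interval of 49.2 to 10898. The processome protein gene wdr43 had 5423 at the 1k-cell stage and 75.4 in egg, 71.9-fold higher (interval 52.3 to 102). The 40S assembly factor gene ltv1 stood at 4570.2 at the 1k-cell stage and 61.5 in egg, 74.3-fold higher (52.3 to 109). These ratios stood on few egg reads, whereas pdcd11, a scaffold of both subunits' assembly, had 6323 normalized counts at the 1k-cell stage against 389 in egg, 16.3-fold higher (14.1 to 18.8).

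Among the 60S assembly factors, 24 of 36 were higher (66.7%, beside 33.2% of all genes). Nop16 had 1330.1 normalized counts at the 1k-cell stage and 21.8 in egg, and the helicase gene ddx27 had 3075 at the 1k-cell stage and 77.4 in egg. One member went the other way. Bxdc2, which acts early in 60S assembly, had 1378 normalized counts at the 1k-cell stage and 4485 in egg, 3.26-fold lower (3.05 to 3.48). All 7 proteins of the small nucleolar RNA particles were higher as deposited, beside 54.7% of all genes. Under both scalings 3 were higher (42.9%, beside 33.2%). Of these, nola1 (gar1) had 6759.8 at the 1k-cell stage and 371 in egg, and nhp2 5512 at the 1k-cell stage and 1074 in egg. Dkc1, the pseudouridine synthase, had 7612 at the 1k-cell stage and 1564 in egg. The methylase gene fbl, at 11528 at the 1k-cell stage and 3364 in egg, passed as deposited only.

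RNA polymerase I, which transcribes the ribosomal RNA genes, was less uniform. Of 10 genes for its subunits and initiation factors, 5 were higher as deposited (50%, beside 54.7% of all genes). Under both scalings 2 were higher (20%, beside 33.2%), both of them subunits of the promoter selectivity factor. Taf1a had 1201 normalized counts at the 1k-cell stage and 7.94 in egg, and taf1b 964 at the 1k-cell stage and 47.6 in egg. The polymerase subunit genes polr1e, znrd1 (polr1h), polr1d and twistnb (polr1f) lay within 2-fold, with 284, 281, 799.6 and 3918 normalized counts at the 1k-cell stage against 361, 296, 1314 and 6349 in egg. Ncl, coding for nucleolin, had the most reads of the list: 43384 normalized counts at the 1k-cell stage and 4666 in egg, 9.30-fold higher (8.92 to 9.70).

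Messages for the ribosomal proteins themselves did not share that shift. Of 81 genes compared, 1 was higher and 23 were at least 2-fold lower as deposited (28.4%, beside 12.5% of all genes), and the list median lay 2.02 below that of all genes on the log2 scale. Under the median-of-ratios scaling 76 of the 81 were at least 2-fold lower, beside 30.4% of all genes. The median member had 1677 normalized counts at the 1k-cell stage and 2695 in egg, so as deposited the list lay below its egg level while most other genes lay above theirs. The small-subunit genes gave 9 of 33 lower and the large-subunit genes 14 of 48. Rpl6 had 3379 normalized counts at the 1k-cell stage and 9066 in egg, 2.68-fold lower (2.57 to 2.80). Rps3 had 1254 at the 1k-cell stage and 3360.1 in egg, 2.68-fold lower (2.49 to 2.88). Rpl5b, at 4662 in 1k-cell embryos against 9142 in egg, and rps2, at 5019 in 1k-cell embryos against 6299 in egg, fell short of 2-fold. The list also lay below other genes of the same level. The 36 with a mean of 512 to 2048 had a median of -0.69 beside 1.42 for all genes in that range, and the 39 between 2048 and 8192 had -0.90 beside 0.38.

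The single member that was higher, rpl7l1, had 2346 normalized counts at the 1k-cell stage and 161 in egg, 14.6-fold higher (11.7 to 18.4). Its yeast counterpart Rlp7 is a nucleolar assembly factor and not part of the mature ribosome, which is background and not a result of these data. The ribosomal protein genes summed to 260517 normalized counts in egg, 157254 in 1k-cell embryos and 294721 in germ ring embryos. The assembly factors summed to 88425 in egg, 317412 in 1k-cell embryos and 413934 in germ ring embryos. The lowest point of the ribosomal protein messages in these libraries was thus in 1k-cell embryos, and that of the assembly factors in egg.

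**Figure D3:**
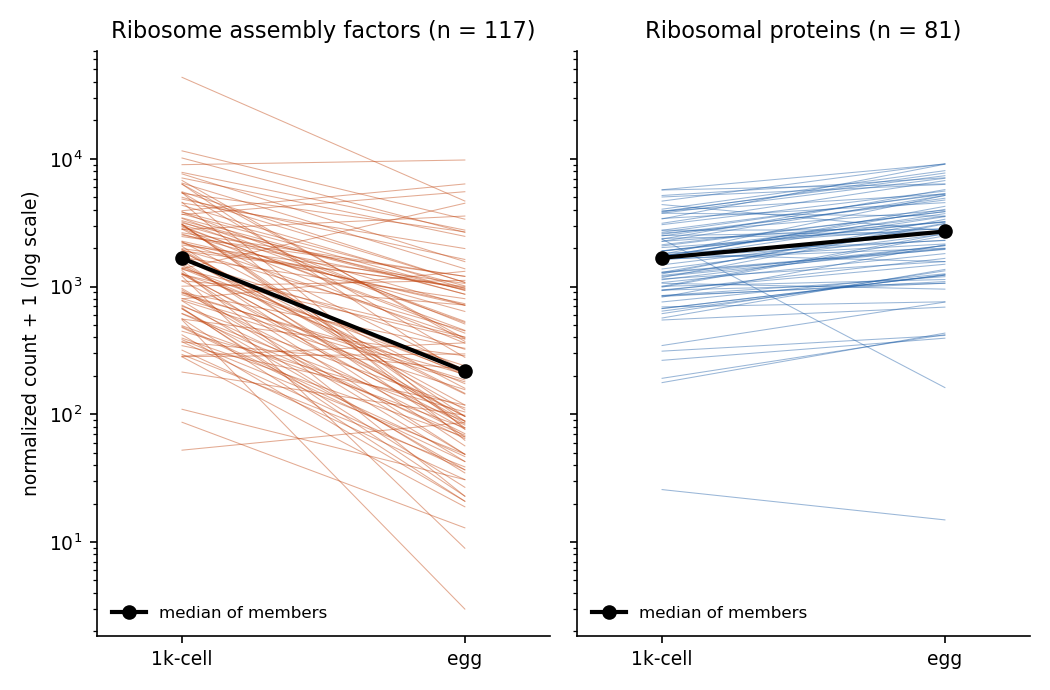
Each thin line joins the level of 1 gene in the 1k-cell library (left) and the egg library (right; normalized count + 1, log scale), for 117 ribosome assembly factors and 81 ribosomal proteins; black points are the medians of the members. The assembly factors' median is 1661 at the 1k-cell stage and 216 in egg, and that of the ribosomal proteins 1677 at the 1k-cell stage and 2695 in egg.

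Translation factors differed by group, also within initiation. All 9 genes of the initiation factor eIF2, which brings the initiator tRNA, and of its exchange factor eIF2B had a ratio above 1 as deposited, 6 were higher under both scalings, and their median log2 ratio was 2.68. Eif2s1l (eif2s1a), for the alpha subunit, had 8582 normalized counts at the 1k-cell stage and 226 in egg, 37.9-fold higher (31.5 to 46.0). The eIF2B subunit genes eif2b4 and eif2b5 had 962 and 799.6 at the 1k-cell stage and 51.6 and 69.5 in egg. Of 13 aminoacyl-tRNA synthetases 7 were higher (53.8%, beside 33.2% of all genes). Among them were sars (seryl) with 2919.8 at the 1k-cell stage and 200.5 in egg, and qars (glutaminyl) with 436 at the 1k-cell stage and 37.7 in egg. Aars (alanyl) had 3398 at the 1k-cell stage and 363 in egg. The release factor gene etf1 (etf1b) had 20929 at the 1k-cell stage and 951 in egg, 22.0-fold higher (20.1 to 24.2). In contrast none of 11 eIF3 genes was higher under both scalings, although 5 were as deposited (45.5%, beside 54.7% of all genes).

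Of 7 elongation factor genes 0 were higher under both scalings and 1 was lower. The lower one, eef1a1a, stood on few reads, with 0 normalized counts at the 1k-cell stage and 11.9 in egg (6 reads). Eef1a1l1, among the 10 genes with the most reads in both libraries, had 52488 normalized counts at the 1k-cell stage and 88234 in egg, and eef2b had 31331 at the 1k-cell stage and 33446 in egg. Both lay within 2-fold as deposited, and eef1a1l1 was below the median of all genes by 1.99 on the log2 scale. Its log2 ratio was -0.75, beside a median of -0.24 for genes with a mean above 8192. Over the whole list of 64 initiation, elongation and aminoacylation genes 18 were higher (28.1%, beside 33.2% of all genes) and 2 lower. The list median of 1.21 was close to that of all genes.

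Among the machinery of mRNA decay all 3 YTHDF genes were higher. Ythdf1, ythdf3 and yth2 (ythdf2) code for cytoplasmic readers of N6-methyladenosine, and Ythdf2 is known in zebrafish for its part in maternal mRNA clearance. Ythdf1 had 5175 normalized counts at the 1k-cell stage and 149 in egg, 34.8-fold higher (27.7 to 44.3). Ythdf3 had 5877 at the 1k-cell stage and 202 in egg, 29.0-fold higher (23.9 to 35.7). Yth2 had 5562 at the 1k-cell stage and 289.8 in egg, 19.2-fold higher (16.3 to 22.8). All 3 ratios lay far above the median of all genes. The nuclear reader ythdc1 lay closer to the median of all genes, with 3284 at the 1k-cell stage and 804 in egg. Igf2bp3, another protein that binds methylated maternal messages, had 9032 at the 1k-cell stage and 397 in egg, 22.8-fold higher (19.8 to 26.3).

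In CCR4-NOT, the main deadenylase complex, scaffold subunits and 1 CCR4-type enzyme were higher and the CAF1-type enzymes were not. Of 12 genes 6 were higher (50%, beside 33.2% of all genes) and none lower. The scaffold gene cnot1 had 11439 normalized counts at the 1k-cell stage and 1887 in egg, 6.06-fold higher (5.67 to 6.48), cnot3a had 1914 at the 1k-cell stage and 67.5 in egg, and zgc:63566 (cnot4b, a ubiquitin ligase subunit) 6930.0 at the 1k-cell stage and 187 in egg, the steepest of the complex at 37.1-fold (30.3 to 46.0). Cnot6, for a CCR4-type deadenylase, was also higher with 15332 at the 1k-cell stage and 1459 in egg. The CAF1-type deadenylase genes lay within 2-fold and below the median of all genes: cnot7 had 1845 at the 1k-cell stage and 2812 in egg, and cnot8 16558 at the 1k-cell stage and 20917 in egg. Under the median-of-ratios scaling both passed as lower. The deposited log2 ratio was -0.34 for cnot8, near the median of -0.24 for genes with a mean above 8192. For cnot7 it was -0.61, beside 0.38 for genes with a mean of 2048 to 8192.

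Adaptors and other nucleases did not follow one direction. Btg4, whose mouse counterpart brings CCR4-NOT to maternal messages, had 6453 normalized counts at the 1k-cell stage and 33359 in egg, 5.17-fold lower (5.03 to 5.32). The related tob1a had 14449.5 at the 1k-cell stage and 1429 in egg, 10.1-fold higher (9.38 to 10.9). Pan3, of the second deadenylase complex, was 5.26-fold lower (5.07 to 5.47) with 3538 at the 1k-cell stage and 18618 in egg. In the microRNA pathway rnasen (drosha), which makes hairpin precursors in the nucleus, had 1640.0 at the 1k-cell stage and 7064 in egg, whereas dicer1, which cuts them in the cytoplasm, had 9193 at the 1k-cell stage and 839.5 in egg. Drosha was thus 4.31-fold lower (4.07 to 4.56) and dicer1 10.9-fold higher (9.93 to 12.1). Of 11 exosome genes 4 were higher (36.4%, near the 33.2% of all genes) and 2 lower (18.2%, beside 12.5%). Exosc9 had 1192 at the 1k-cell stage and 63.5 in egg, and exosc7 had 1427 at the 1k-cell stage and 3263 in egg. In the whole decay list 19 of 58 genes were higher (32.8%, near the share of all genes) and 5 lower, and the median of 1.05 lay 0.19 below that of all genes.

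Several RNA-binding regulators with many egg reads were lower. Cth1, a CCCH zinc-finger gene, had 55516 normalized counts at the 1k-cell stage and 160517 in egg, 2.89-fold lower (2.86 to 2.92). Its relative zfp36l2 had 2748 at the 1k-cell stage and 13768 in egg, 5.01-fold lower (4.80 to 5.23). Zorba (cpeb1b), which binds the cytoplasmic polyadenylation element, had 2993 at the 1k-cell stage and 16769 in egg, 5.60-fold lower (5.38 to 5.84). These 3 messages continued downward in the next stage, with 8850.0, 1296 and 693 normalized counts in germ ring embryos. Other members of the same families differed: cpeb4 had 7621 at the 1k-cell stage and 1143 in egg, 6.67-fold higher (6.13 to 7.27). Pum2, coding for a Pumilio repressor, had 2240.0 at the 1k-cell stage and 252 in egg. The poly(A)-binding protein genes pabpc1a and pabpc1l lay within 2-fold, pabpc1a at 19289 in 1k-cell embryos against 22927 in egg and pabpc1l at 2287 in 1k-cell embryos against 1588 in egg. Fam46c (tent5c), a poly(A) polymerase gene, was 27.0-fold higher (24.1 to 30.2) with 17173 at the 1k-cell stage and 637 in egg. Of the 71 members of the list 20 were higher (28.2%, beside 33.2% of all genes) and 7 lower (9.86%, beside 12.5%).

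**Figure D4:**
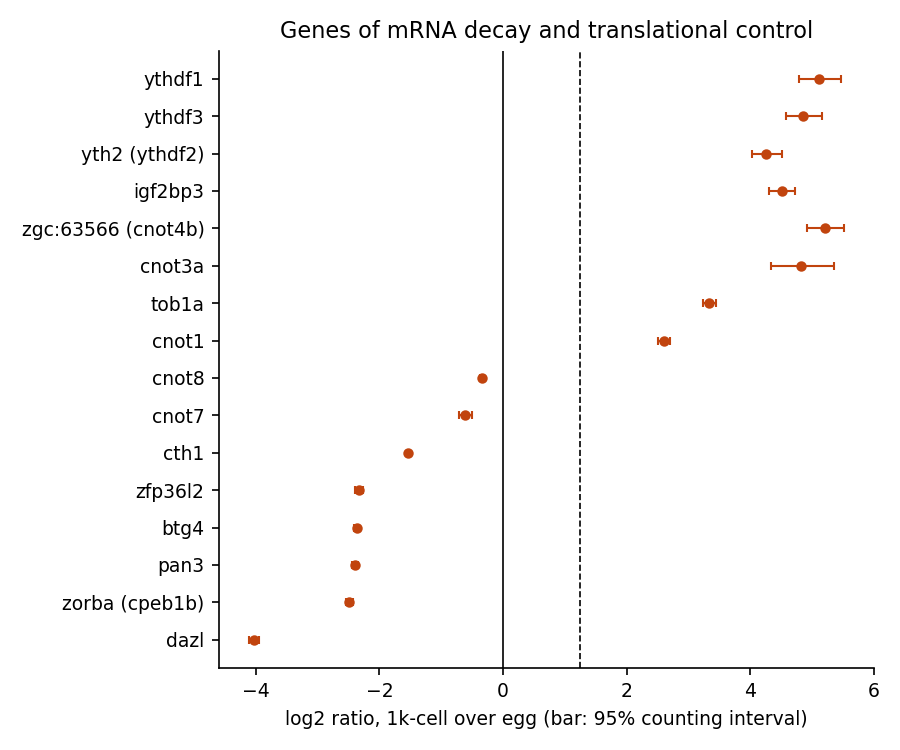
Points are the log2 ratios (1k-cell over egg) of 16 genes of mRNA decay and translational control, with 95% counting intervals as bars; the solid line is equal levels and the dashed line the median of all genes (1.24). YTHDF readers, igf2bp3 and most CCR4-NOT subunits shown lie right of the dashed line, and cnot7, cnot8, btg4, pan3, cth1, zfp36l2, zorba and dazl lie left of the solid line.

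Germ plasm, the cytoplasm that specifies the germ line, gave both directions as well. Of 26 genes 8 were higher (30.8%, near the 33.2% of all genes) and 5 lower (19.2%, beside 12.5%). The lower ones were dazl, sybu, grip2a, celf1 and pld6. Dazl, a translational activator, had 1321 normalized counts at the 1k-cell stage and 21621 in egg, 16.4-fold lower (15.5 to 17.3). Sybu, needed in zebrafish for transport of the dorsal determinant, had 1103 at the 1k-cell stage and 10265 in egg, 9.31-fold lower (8.73 to 9.93). Grip2a had 2104 at the 1k-cell stage and 7981 in egg, 3.79-fold lower (3.60 to 4.00). In germ ring embryos all 3 were lower again, at 381, 155 and 437.

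Several genes of the piRNA pathway were among the higher ones, although pld6 of the same pathway was lower. Asz1 had 2172 normalized counts at the 1k-cell stage and 109 in egg, 19.9-fold higher (15.2 to 26.5). The Tudor gene tdrd5 had 2573 at the 1k-cell stage and 135 in egg, 19.1-fold higher (15.0 to 24.6). The Piwi genes piwil1 and piwil2 had 1292 and 2483 at the 1k-cell stage and 208 and 445 in egg, and tdrd1 had 4971 at the 1k-cell stage and 566 in egg. Some classical germ cell messages were near their egg level as deposited: vasa (ddx4) had 5449.7 at the 1k-cell stage and 3701 in egg, nanos3 2339 at the 1k-cell stage and 1778 in egg, tdrd7 (tdrd7a) 7988 at the 1k-cell stage and 6341 in egg, and dnd (dnd1) 2174 at the 1k-cell stage and 3215 in egg. All 4 lay within 2-fold and below the median of all genes.

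Maternal-effect genes, which the mother must supply for activation, axis formation or cleavage, had a median log2 ratio of 0.09. Of 45 genes 8 were higher (17.8%, beside 33.2% of all genes) and 13 lower (28.9%, beside 12.5%). The lower ones included the importin genes kpna2 and zgc:55877 (kpna7) and the passenger genes aurkb, birc5a and birc5b, described with their complexes below. Zar1 and its paralogue zar1l (under a clone name in the files), both for RNA-binding proteins of the oocyte, went in opposite directions: zar1 had 1696 normalized counts at the 1k-cell stage and 322 in egg, 5.28-fold higher (4.49 to 6.23). In contrast, zar1l had 1923 at the 1k-cell stage and 57959 in egg, 30.1-fold lower (28.8 to 31.5). Of the signals that pattern the axis, gdf6a (radar), a BMP ligand, was 34.3-fold higher (19.5 to 66.6) with 817 at the 1k-cell stage and 23.8 in egg. The Vg1 ligand gene dvr1, at 31005 in 1k-cell embryos against 36995 in egg, the beta-catenin gene ctnnb2, at 52519 in 1k-cell embryos against 62078 in egg, and eomesa, at 12691 in 1k-cell embryos against 18773 in egg, lay within 2-fold.

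Zona pellucida genes, coding for the egg coat, mostly lay within 2-fold or passed as deposited only: zp2.5 had 162 normalized counts at the 1k-cell stage and 173 in egg, zp2.3 255 at the 1k-cell stage and 443 in egg, and zp3a.2 1208 at the 1k-cell stage and 1298 in egg. An exception was zgc:66432 (zp3d.1) with 4501 at the 1k-cell stage and 718 in egg. These genes form families of near-identical copies, and reads could be shared among them. The cathepsin gene ctssb.1 (ctss2.1) was 4.32-fold lower (4.23 to 4.42) with 10836 at the 1k-cell stage and 46835 in egg, and ctsl1a, among the 10 genes with the most reads in egg, had 41777 at the 1k-cell stage and 78233 in egg. The nucleoplasmin gene npm2a had 528 at the 1k-cell stage and 19.8 in egg, 26.6-fold higher (14.3 to 55.8). Its paralogue npm2 (npm2b) had 880.4 at the 1k-cell stage and 689 in egg. Of 38 oocyte genes 10 were higher (26.3%, beside 33.2% of all genes) and 6 lower (15.8%, beside 12.5%).

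Maternally supplied transcription factors gave 16 of 60 genes higher (26.7%, beside 33.2% of all genes) and 3 lower. After rescaling by the median of ratios 22 of the 60 were lower, so the balance of the directions depended on the scaling. Besides sox19b, with 48352 normalized counts at the 1k-cell stage and 3674 in egg, the higher ones included sall4 with 36827 at the 1k-cell stage and 4041 in egg, otx1b with 15672 at the 1k-cell stage and 1161 in egg, tcf7l1b, a repressor of Wnt targets, with 2017 at the 1k-cell stage and 125 in egg, and the acetyltransferase gene crebbpa with 5814 at the 1k-cell stage and 454 in egg. The Hippo pathway gene zgc:171784 (tead3b) was 20.7-fold higher (16.2 to 27.0) with 2634 at the 1k-cell stage and 127 in egg. Smad5, at 19920.1 in 1k-cell embryos against 26031 in egg, ybx1, at 26862 in 1k-cell embryos against 35205 in egg, hmga1a, at 51473 in 1k-cell embryos against 82334 in egg, and hmgb2a, at 26656 in 1k-cell embryos against 38432 in egg, lay within 2-fold as deposited and were lower after rescaling. Tfap2c, a factor of the epidermis lineage, was 20.5-fold lower (12.8 to 34.9) with 18.1 at the 1k-cell stage and 371 in egg, in the same direction as the epidermis markers.

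Several genes of the first zygotic wave were detected in 1k-cell embryos and not in egg, at low levels. Of 106 found in the tables, 32 lacked reads in egg, the library with fewer reads, and 11 in 1k-cell embryos. In either library 75 reached 10 normalized counts, and their median was 1.16. A gene with no egg read enters only through 1k-cell embryos, so its direction was set by the filter. Vent, with 0 in egg, 0.951 in 1k-cell embryos and 3281 in germ ring embryos, was left out by it. Of those 75 genes 28 were higher (37.3%, near the 33.2% of all genes) and 19 lower (25.3%, beside 12.5%). Genes of the list with no egg read are given with a bound at 3 egg reads. Vox, a ventral repressor, had 0 normalized counts in egg, 71.3 in 1k-cell embryos and 9126 in germ ring embryos, at least 12.0-fold higher in 1k-cell embryos than in egg. Nnr had 0 in egg, 31.4 in 1k-cell embryos and 10989 in germ ring embryos. It was at least 5.27-fold higher in 1k-cell embryos than in egg. Hnf1ba, a homeobox gene of endoderm and hindbrain patterning, had 0 in egg, 97.0 in 1k-cell embryos and 1787 in germ ring embryos, and was at least 16.3-fold higher. Aplnrb, a receptor gene of mesendoderm cells, had 0 in egg, 58.9 in 1k-cell embryos and 3886 in germ ring embryos, and was at least 9.90-fold higher. Germ ring levels were 128-fold above 1k-cell levels for vox, 350.3-fold for nnr and 18.4-fold for hnf1ba. The step from egg has only a lower bound for these genes, so the steps cannot be ranked.

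Of the 304 genes with no egg read, 86 had a germ ring level above their 1k-cell level by any margin. For 14 the germ ring level was at least 10-fold the 1k-cell level. The shares of all genes with such a rise were not computed, so these counts have no baseline. Tert, coding for telomerase, had 327 normalized counts at the 1k-cell stage and 0 in egg and was thus at least 54.9-fold higher. It stood at 277 in germ ring embryos. Among zygotic genes with some egg RNA, sox11b had 28144 at the 1k-cell stage and 1032 in egg, 27.3-fold higher (25.0 to 29.8). Bambia, a BMP pseudoreceptor, had 916 at the 1k-cell stage and 61.5 in egg, 14.9-fold (10.4 to 22.0). Wnt11 had 99.8 at the 1k-cell stage and 1.98 in egg, a single egg read, with a ratio of 50.3 (8.83 to 2005). Irx7 had 221 at the 1k-cell stage and 3.97 in egg, 2 egg reads, with a ratio of 55.6 (15.2 to 462). Several of the strongest germ ring genes, such as blf at 400.3 in 1k-cell embryos against 389 in egg and id1 at 188 in 1k-cell embryos against 324 in egg, lay within 2-fold as deposited and were lower after rescaling.

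The lower members of this list included 4 keratin genes and the claudin gene cldne. Krt18 had 373 normalized counts in egg, 3.80 in 1k-cell embryos and 54807 in germ ring embryos. Krt8 had 1641 in egg, 252 in 1k-cell embryos and 66146 in germ ring embryos. Apoeb, an apolipoprotein gene, had 7411 in egg, 53.2 in 1k-cell embryos and 52943 in germ ring embryos. Their dip at the 1k-cell stage had the same direction as the epidermis markers, whose summed level was 135730 in egg, 2466 in 1k-cell embryos and 190656 in germ ring embryos. The marker list shares keratin genes with this one, among them krt4 and krt5, so the likeness is not a separate observation. Krt5 alone had 109093 of the egg sum. The part of skin cells in the dip was not tested.

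**Figure D5:**
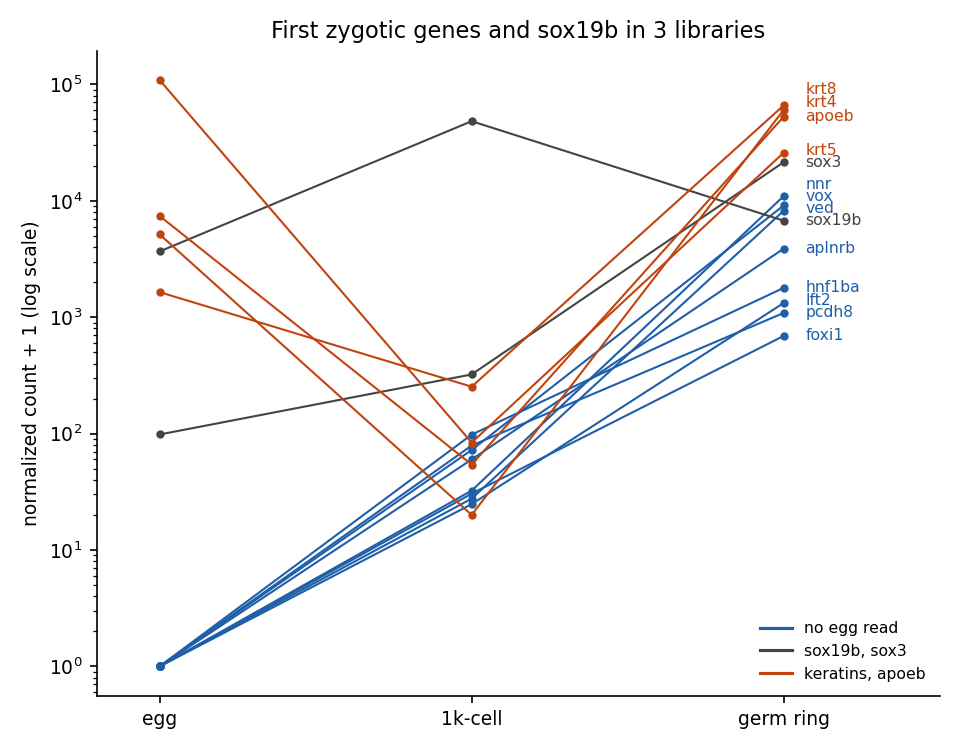
Levels (normalized count + 1, log scale) in the egg, 1k-cell and germ ring libraries, in developmental order, of 8 genes with no egg read (blue), of sox19b and sox3 (grey) and of 3 keratin genes and apoeb (orange). The blue lines lie between 20 and 100 at the 1k-cell stage and are higher in germ ring embryos. Sox19b peaks at the 1k-cell stage, and the orange lines are lowest there.

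Chromatin regulators of the Polycomb and Trithorax groups had a median log2 ratio of 2.02. Of 49 genes 22 were higher (44.9%, beside 33.2% of all genes) and 3 lower. In PRC1, which ubiquitinates histone H2A, 8 of 18 were higher (44.4%). Pcgf6 had 1709 normalized counts at the 1k-cell stage and 69.5 in egg, 24.6-fold higher (17.6 to 35.4), the Polyhomeotic gene phc2b 1316 at the 1k-cell stage and 171 in egg, and bmi1a 7229 at the 1k-cell stage and 980.4 in egg. In PRC2 the methyltransferase gene ezh2 had 6817 at the 1k-cell stage and 665 in egg, 10.3-fold higher (9.19 to 11.5). Suz12b had 3284 at the 1k-cell stage and 516 in egg. Other core subunits did not follow: eed had 2303 at the 1k-cell stage and 4939.9 in egg, 2.15-fold lower (2.03 to 2.27). Rbb4, a histone-binding subunit shared with other complexes, had 3036 at the 1k-cell stage and 15550.2 in egg, 5.12-fold lower (4.92 to 5.34). Its paralogue rbb4l (rbbp7) had 2151 at the 1k-cell stage and 196 in egg. The H3K4 methyltransferase gene mll (kmt2a) was 16.1-fold higher (14.4 to 18.0) with 10021 at the 1k-cell stage and 623 in egg, but the core subunits ash2l, at 3945 in 1k-cell embryos against 7328 in egg, and rbbp5, at 4749.9 in 1k-cell embryos against 6561 in egg, lay within 2-fold.

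Among genes of DNA methylation 9 of 24 were higher (37.5%, near the 33.2% of all genes) and 5 lower (20.8%, beside 12.5%). Maternal dnmt1, for the maintenance methyltransferase, had 27779.9 normalized counts at the 1k-cell stage and 58757 in egg, 2.12-fold lower (2.08 to 2.15). Genes of the methyl-CpG-binding domain family were higher in part: mbd3b had 1022 at the 1k-cell stage and 59.5 in egg, 17.2-fold (12.0 to 25.6). In contrast, mbd3a, at 4733 in 1k-cell embryos against 6141 in egg, lay within 2-fold. Cxxc1, whose protein binds unmethylated CpG, had 3536 at the 1k-cell stage and 248 in egg, 14.3-fold (11.9 to 17.2). Trdmt1, a tRNA methyltransferase gene, had 24.7 at the 1k-cell stage and 1901 in egg, 76.9-fold lower (52.2 to 118).

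Histone chaperones and their partners differed. Chaf1b, of chromatin assembly factor 1, had 2441 normalized counts at the 1k-cell stage and 45.6 in egg, 53.5-fold higher (35.6 to 84.5). Hat1, which acetylates new histone H4, had 1777 at the 1k-cell stage and 77.4 in egg. Asf1bb had 1005 at the 1k-cell stage and 6599 in egg, 6.57-fold lower (6.13 to 7.04). The stem-loop binding protein of oocytes, zgc:158856 (slbp2), had 4216 at the 1k-cell stage and 9028 in egg, 2.14-fold lower (2.05 to 2.23). Nasp, at 31985 in 1k-cell embryos against 48693 in egg, and h3f3a, at 16318 in 1k-cell embryos against 15846 in egg, lay within 2-fold. Canonical histone messages end in a stem-loop and mostly have no poly(A) tail, so they are poorly captured by poly-T beads. Of 42 genes on the histone and chaperone list, 8 were higher (19.0%, beside 33.2% of all genes) and 7 lower (16.7%, beside 12.5%).

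Of 93 genes for RNA polymerase II, general factors and Mediator, 27 were higher (29.0%, near the 33.2% of all genes) and 6 lower (6.45%). In TFIIH, which opens the promoter, 5 of 10 were higher (50%, beside 33.2% of all genes) and none lower. The helicase gene ercc2 had 1109.5 normalized counts at the 1k-cell stage and 17.9 in egg, 62.1-fold higher (32.6 to 136). Gtf2h4 had 871 at the 1k-cell stage and 43.7 in egg. In contrast, cdk7 and gtf2h3, at 296 and 79.9 in 1k-cell embryos against 369 and 85.3 in egg, lay within 2-fold. Of 9 pausing factor genes (P-TEFb, DSIF and NELF) 2 were higher (22.2%, beside 33.2% of all genes) and none lower. The steepest, cdk9, for the P-TEFb kinase, had 10855 at the 1k-cell stage and 298 in egg, 36.5-fold higher (31.0 to 43.1). Whsc2 (nelfa) had 4579 at the 1k-cell stage and 141 in egg, 32.5-fold (25.7 to 41.7). Mediator had 6 higher (22.2%) and 2 lower (7.41%) of 27. Its med7 had 4095 at the 1k-cell stage and 133 in egg, and med18 694 at the 1k-cell stage and 2334 in egg. Of 11 polymerase subunits 2 were higher and 2 lower, and the second largest, polr2b, had 3295 at the 1k-cell stage and 3561 in egg.

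The spliceosome list lay below the median of all genes. Of 112 splicing genes 71 were within 2-fold of egg as deposited, 19 were higher, a smaller share than the 33.2% of all genes, and 10 lower. After rescaling 55 of them were lower, and the list median lay 1.11 below that of all genes on the log2 scale as deposited. The gap was smaller among genes of like level above a mean of 512. The 29 members between 512 and 2048 had a median of 1.23 beside 1.42 for all genes in that range. The 47 between 2048 and 8192 had 0.10 beside 0.38, and the 27 above 8192 had -0.56 beside -0.24. The 8 members between 128 and 512 had 0.82 beside 1.94. None of 13 SR protein genes was higher, and of the Sm proteins, the ring on each spliceosomal RNA, snrpd2 had 1459 normalized counts at the 1k-cell stage and 5749.7 in egg, 3.94-fold lower (3.70 to 4.19). Snrpb had 8498 at the 1k-cell stage and 24261 in egg, 2.85-fold lower (2.78 to 2.93). Gemin2, of the SMN complex that loads the Sm ring, had 911 at the 1k-cell stage and 9.92 in egg, 91.8-fold higher (39.2 to 283). Srrm2, a large splicing scaffold, had 13568 at the 1k-cell stage and 1079.7 in egg, 12.6-fold higher (11.5 to 13.7). Cdc5l had 10735 at the 1k-cell stage and 895 in egg. The abundant hnRNP genes hnrnpab and hnrnpa1 had 32334 and 25322 at the 1k-cell stage against 51003 and 44872 in egg.

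DNA replication runs without gap phases during cleavage. Of 60 genes 18 were higher (30%, near the 33.2% of all genes) and 12 lower (20%, beside 12.5%). Subunits of single complexes parted. Of the MCM2 to MCM7 helicase, mcm5 had 6402 normalized counts at the 1k-cell stage and 289.8 in egg, 22.1-fold higher (18.8 to 26.2). Mcm4 had 7031 at the 1k-cell stage and 559.7 in egg, 12.6-fold (11.2 to 14.2). In contrast, mcm7 was lower with 15208 at the 1k-cell stage and 33460.2 in egg, and the maternal mcm6l had 7694 at the 1k-cell stage and 8695 in egg. Of the helicase activators, cdc45 was 17.1-fold lower (15.7 to 18.5) with 633 at the 1k-cell stage and 10803 in egg, gins2 6.54-fold lower (6.05 to 7.08) with 801 at the 1k-cell stage and 5246 in egg, and gins3 7.77-fold higher (6.80 to 8.92) with 3547 at the 1k-cell stage and 456 in egg. All 5 clamp loader genes but rfc3 were higher, from 751 at the 1k-cell stage and 89.3 in egg for rfc4 to 4169 at the 1k-cell stage and 312 in egg for rfc1. Topoisomerase genes split too, with top2a at 531 at the 1k-cell stage and 13893 in egg and top1l at 15059 at the 1k-cell stage and 1223 in egg.

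Mitotic cyclin genes were among the abundant messages of both libraries and did not share one direction. Ccnb1 had 32667 normalized counts at the 1k-cell stage and 80577 in egg, 2.47-fold lower. In contrast, ccnb2, at 43799 in 1k-cell embryos against 70899.7 in egg, and ccna1, at 42442 in 1k-cell embryos against 51567 in egg, lay within 2-fold. Ccna2 was also within 2-fold but above egg as deposited, with 32876 at the 1k-cell stage and 21752 in egg, a ratio of 1.51 (1.48 to 1.54), and below egg after rescaling. Inhibitory kinases of CDK1 were higher: pkmyt1 had 1002 at the 1k-cell stage and 45.6 in egg, 22.0-fold (14.6 to 34.8). Wee1 had 559 at the 1k-cell stage and 81.4 in egg, 6.87-fold (5.00 to 9.67). In contrast, the oocyte form wee2, at 11357 in 1k-cell embryos against 21558 in egg, lay within 2-fold. The G1 regulator genes rb1 and rbl1 had 3397 and 205 at the 1k-cell stage and 419 and 23.8 in egg, and foxm1, a driver of mitotic genes, 6188 at the 1k-cell stage and 584 in egg. The polo kinase gene plk1 was 2.11-fold lower (2.07 to 2.14) with 27129 at the 1k-cell stage and 57213 in egg. In the list of 55 genes 15 were higher (27.3%, beside 33.2% of all genes) and 9 lower (16.4%, beside 12.5%).

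Spindle and cytokinesis genes held some of the steepest differences. Of the 4 chromosomal passenger genes 3 were lower: aurkb had 1845 normalized counts at the 1k-cell stage and 30465 in egg, 16.5-fold (15.7 to 17.3). Birc5a had 696 at the 1k-cell stage and 5571 in egg, 8.01-fold (7.38 to 8.70). Birc5b, whose loss in the mother blocks cleavage furrows in zebrafish, had 1241 at the 1k-cell stage and 5228 in egg, 4.21-fold (3.94 to 4.51). The remaining member, cdca8 (borealin), had 3958 at the 1k-cell stage and 252 in egg, 15.7-fold higher (13.2 to 18.9). At the kinetochore, bub3 of the checkpoint was 163-fold lower (138 to 194) with 136 at the 1k-cell stage and 22159 in egg, and the motor gene zgc:152925 (cenpe) 28.3-fold lower (25.5 to 31.5) with 366 at the 1k-cell stage and 10372 in egg, but zwilch, which recruits checkpoint proteins, was 57.6-fold higher (27.8 to 144) with 799.6 at the 1k-cell stage and 13.9 in egg, and nuf2 21.2-fold higher (11.7 to 42.7) with 462 at the 1k-cell stage and 21.8 in egg. The cytokinesis regulator gene racgap1 had 6835 at the 1k-cell stage and 206 in egg, 33.1-fold higher (27.3 to 40.6). Of 7 anaphase-promoting complex subunits 3 were higher (42.9%), among them anapc5 with 1263 at the 1k-cell stage and 45.6 in egg. Of 79 genes 21 were higher (26.6%, beside 33.2% of all genes) and 14 lower (17.7%, beside 12.5%).

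DNA repair genes gave both directions. Neil1 and xpc, which recognize damaged bases and helix distortions, had 862 and 5228 normalized counts at the 1k-cell stage against 23.8 and 206 in egg. The mismatch repair gene msh6 had 7802 in 1k-cell embryos and 7405 in egg. Brca2 was 12.6-fold higher (11.3 to 14.2) with 7593 at the 1k-cell stage and 601 in egg. Fancd2, the central Fanconi protein gene, was 11.4-fold lower (9.66 to 13.5) with 159 at the 1k-cell stage and 1810.0 in egg, and the excision nuclease gene ercc1 9.27-fold lower (7.70 to 11.2) with 132 at the 1k-cell stage and 1225 in egg. In this list of 69 genes 20 were higher (29.0%, near the 33.2% of all genes) and 13 lower (18.8%, beside 12.5%).

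Of 49 genes of the apoptosis and stress response list 6 were higher (12.2%, beside 33.2% of all genes) and 14 lower (28.6%, beside 12.5%). Immediate-early genes of the list, which respond to stress, gave both directions. Among the lower ones fos (fosab) had 11.4 normalized counts at the 1k-cell stage and 425 in egg, jun 5.70 at the 1k-cell stage and 65.5 in egg, and egr1 0 at the 1k-cell stage and 23.8 in egg. In contrast, the related genes jund and atf3 were higher, with 377 and 731 at the 1k-cell stage and 37.7 and 103 in egg. The ratio was 10.0 (6.32 to 16.8) for jund. Mcl1a, an anti-apoptotic gene, was 2.72-fold lower (2.65 to 2.79) with 9922 at the 1k-cell stage and 26966 in egg, and the phosphatase gene dusp1 3.45-fold lower (3.35 to 3.56) with 5905 at the 1k-cell stage and 20393 in egg. Genes of cell death execution differed among themselves. Apaf1, of the apoptosome, had 1168 at the 1k-cell stage and 41.7 in egg, 28.0-fold higher (18.2 to 45.4). Casp3a had 4826 at the 1k-cell stage and 863 in egg, 5.59-fold higher (5.07 to 6.18). Casp6l1 was lower, with 30.4 at the 1k-cell stage and 115 in egg, and casp9 lay within 2-fold, with 895 at the 1k-cell stage and 564 in egg.

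Importins went in both directions. Of 18 importins and exportins 7 were higher (38.9%, beside 33.2% of all genes) and 4 lower (22.2%, beside 12.5%). The lower ones were cse1l, the exporter of importin alpha, with 952 normalized counts at the 1k-cell stage and 14107 in egg, 14.8-fold (13.9 to 15.9), kpna2 with 3569 at the 1k-cell stage and 17176 in egg, 4.81-fold (4.63 to 5.00), zgc:55877 (kpna7), whose mammalian counterpart is an oocyte importin, with 8813 at the 1k-cell stage and 38930.0 in egg, 4.42-fold (4.31 to 4.53), and kpnb1, importin beta, with 8212 at the 1k-cell stage and 21207 in egg, 2.58-fold (2.51 to 2.66). Kpna4, another importin alpha, had 19596 at the 1k-cell stage and 3991 in egg, 4.91-fold higher (4.69 to 5.14). Kpnb3 had 9044 at the 1k-cell stage and 883 in egg, 10.2-fold (9.31 to 11.3). Xpo7 had 2828 at the 1k-cell stage and 189 in egg, 15.0-fold (12.2 to 18.6). Rangap1, which resets the Ran cycle, was 24.9-fold higher (17.2 to 37.6) with 1383 at the 1k-cell stage and 55.6 in egg. In contrast, ran, at 13828 in 1k-cell embryos against 9918 in egg, lay within 2-fold. Among the 21 nucleoporins 5 were higher (23.8%) and 1 lower (4.76%).

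In the proteasome the median was higher for the cap than for the core. Of 23 genes of the regulatory cap, which receives ubiquitinated proteins, 9 were higher (39.1%, near the 33.2% of all genes) and 0 lower. The median log2 ratio of the cap was 1.95. Psmd2 had 1925 normalized counts at the 1k-cell stage and 85.3 in egg, 22.6-fold higher (16.7 to 31.3). Usp14, a deubiquitinase gene, had 1206 at the 1k-cell stage and 63.5 in egg, 19.0-fold (13.4 to 27.9). Of 19 genes of the catalytic core, with a median of 0.52, 2 were higher (10.5%, beside 33.2% of all genes) and 4 lower (21.1%, beside 12.5%). The lower ones included the immunoproteasome genes psmb8, with 0 at the 1k-cell stage and 101 in egg, at least 35.5-fold, and psmb10, with 0.951 at the 1k-cell stage and 61.5 in egg, a single 1k-cell read, and they moved in the direction of the immune cell markers, of which cd74a had 6.66 at the 1k-cell stage and 1240.4 in egg. The part of immune cells in these values was not tested.

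Chaperones had a median of 1.57, with 27 of 77 higher (35.1%, near the 33.2% of all genes) and 4 lower (5.19%, beside 12.5%). In the endoplasmic reticulum 14 of 17 were higher as deposited (82.4%, beside 54.7% of all genes) and 7 under both scalings (41.2%, beside 33.2%). Hyou1 had 13815 normalized counts at the 1k-cell stage and 1752 in egg, 7.88-fold higher (7.36 to 8.45). Hsp90b1 had 9481 at the 1k-cell stage and 1229 in egg, 7.72-fold (7.11 to 8.38). Dnajb11 had 6755 at the 1k-cell stage and 812 in egg, 8.32-fold (7.53 to 9.22). Xbp1, the transcription factor gene of the unfolded protein response, had 4126 at the 1k-cell stage and 484 in egg, 8.52-fold (7.49 to 9.73). In contrast, the lectin chaperones canx, at 7581 in 1k-cell embryos against 6549.5 in egg, and calr, at 7660.2 in 1k-cell embryos against 10334 in egg, lay within 2-fold. Of 8 subunits of the CCT chaperonin, which folds actin and tubulin, 3 were higher (37.5%, near the 33.2% of all genes). Cct7 led with 7113 at the 1k-cell stage and 572 in egg, while cct2 had 537 at the 1k-cell stage and 566 in egg. The Hsp70 cochaperone gene bag5 was 30.1-fold higher (24.7 to 37.0) with 5966 at the 1k-cell stage and 198 in egg. Hspa8, among the 10 genes with the most reads at the 1k-cell stage, had 54527 at the 1k-cell stage and 60749.9 in egg.

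Of 71 genes of oxidative phosphorylation 11 were higher (15.5%, beside 33.2% of all genes) and 9 lower (12.7%, near the 12.5% of all genes). The median of 0.32 lay 0.92 below that of all genes. In the ATP synthase the catalytic subunit gene atp5b (atp5f1b) had 7450.1 normalized counts at the 1k-cell stage and 996 in egg, 7.48-fold higher (6.83 to 8.20). Atp5o (atp5po), of the stalk, had 491 at the 1k-cell stage and 3223 in egg, 6.57-fold lower (5.95 to 7.27). In complex III uqcrc1 and uqcrc2b had 1581 and 1764 in 1k-cell embryos against 185 and 198 in egg. Complex I gave 4 higher and 5 lower of 35. In glycolysis and the citric acid cycle 12 of 43 were higher (27.9%) and 7 lower (16.3%). Aldoaa and tpi1a, for aldolase and triosephosphate isomerase, were higher, aldoaa with 5357 at the 1k-cell stage and 542 in egg, 9.89-fold (8.76 to 11.2). Tpi1a had 2466 at the 1k-cell stage and 268 in egg, 9.20-fold. Hexokinase genes went apart, hk2 with 2121 at the 1k-cell stage and 268 in egg and hk1 with 0.951 at the 1k-cell stage and 89.3 in egg, a single 1k-cell read. The isocitrate dehydrogenase pair did likewise, with idh2 at 1859.7 at the 1k-cell stage and 183 in egg and idh1 at 1134 at the 1k-cell stage and 8594 in egg.

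Some of the most abundant RNAs of the egg library were lower. Cldnd, a claudin gene with the most reads of any gene in egg, had 46330.0 normalized counts at the 1k-cell stage and 285730.0 in egg, 6.17-fold lower (6.10 to 6.23). Cldng had 29802 at the 1k-cell stage and 110675 in egg, 3.71-fold lower (3.66 to 3.77). In germ ring embryos cldnd and cldng had 7062 and 4398. The epidermis marker krt5, also among the 10 genes with the most reads in egg, had 82.7 at the 1k-cell stage and 109093 in egg. It was 1319-fold lower (1069 to 1647) and stood at 25968 in germ ring embryos. At the other end pfn2, a profilin gene among the 10 with the most reads at the 1k-cell stage, had 46437 at the 1k-cell stage and 4061 in egg, 11.4-fold higher (10.9 to 12.0). Mkrn4, a makorin gene, had 40550.4 at the 1k-cell stage and 1576 in egg, 25.7-fold (24.0 to 27.6). There were 85 genes with 1000 or more normalized counts in egg whose 1k-cell level was lower by 8-fold or more. Of these, 41 were lower in germ ring embryos than at the 1k-cell stage by any margin, and 14 were over 10-fold higher there. The shares of all genes in such subsets were not computed. Melk, a cell cycle kinase gene, belonged to neither subset with 9677 in egg, 224 in 1k-cell embryos and 566 in germ ring embryos.

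Keratins, claudins and other junction genes had the lowest median after the epidermis markers, a list that shares members such as krt5, krt15 and cldni with them. Of 58 genes compared 37 were lower and 2 higher, with a median log2 ratio of -2.66. Krt15 had 0 normalized counts at the 1k-cell stage and 1907 in egg, at least 669-fold lower, cldni 0 at the 1k-cell stage and 2403 in egg, at least 843-fold lower, and zgc:92533 (krt91) 33.3 at the 1k-cell stage and 68072 in egg, 2046-fold lower (1471 to 2937). Other junction genes of the same list lay within 2-fold: cdh1, coding for E-cadherin, had 20074 at the 1k-cell stage and 11946 in egg, ctnna (ctnna1) 10752 at the 1k-cell stage and 12537 in egg, oclna 12459.6 at the 1k-cell stage and 23967 in egg, and tjp3 5161 at the 1k-cell stage and 6256 in egg. Type I collagen genes were lower like the skin genes, col1a1a with 30.4 at the 1k-cell stage and 2501 in egg, 82.2-fold lower (57.9 to 121). Col1a1b had 8.56 at the 1k-cell stage and 3376 in egg. In contrast, the laminin gene lamc1 had 9573 at the 1k-cell stage and 1514 in egg, 6.32-fold higher (5.87 to 6.81). The integrin gene itgb5 had 9356 at the 1k-cell stage and 798 in egg, 11.7-fold (10.6 to 13.0).

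Marker lists of other tissues had few genes and gave mixed counts. Of 6 ovarian follicle markers compared 3 were higher and 2 lower, with a summed level of 11809 normalized counts at the 1k-cell stage and 17188 in egg. The steroidogenic gene hsd3b1 had 1676 at the 1k-cell stage and 41.7 in egg, 40.2-fold higher (26.2 to 65.1). Cyp11a1, which starts steroid synthesis, had 4459 at the 1k-cell stage and 13986 in egg, 3.14-fold lower (3.02 to 3.26). Red blood cell markers summed to 780 at the 1k-cell stage and 651 in egg, liver markers to 392 at the 1k-cell stage and 1417 in egg, and skeletal muscle markers to 2568 at the 1k-cell stage and 6625 in egg. The liver and muscle list medians lay 0.96 and 0.45 above that of all genes on the log2 scale. With a floor of 50 normalized counts they turned to -4.60 and -2.79. Both rest on few genes. At least 10 normalized counts were reached by 6 liver markers at the 1k-cell stage and 3 in egg, and by 9 and 2 muscle markers. A floor of 50 leaves fewer of them, so no direction is read from these medians. The part of these tissues in the results was not tested. Some messages of the oocyte were abundant in the library labelled egg, where zar1l, dazl, org and btg4 had 57959, 21621, 38791 and 33359 normalized counts. Others were low there, such as zar1 with 322 and the egg coat gene zp2.5 with 173. Of 52 genes of the egg coat and oocyte list found, 12 lacked reads in egg and 8 in 1k-cell embryos.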

How the data were processed

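The files used hold 1 value per gene entry for each library, a signal made by the authors before deposit: read counts per gene scaled by the TMM method, per the file headers. Alignment with BWA 0.6.1-r104 to Zv9/danRer7 and use of edgeR are named in the submitters' processing notes; no source used here gives the gene annotation, the counting tool or any filter. All values were whole multiples of 1 step per library within a tolerance of 0.01, so reads were recovered by dividing by that step, giving 24256918 reads for the 1k-cell library and 9241829 for egg. With no replicate, no count model was fitted.

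The tables were joined by name. Of 15328 entries with 14244 names, 718 names had several entries and were represented by the entry with the highest total. Genes at 10 or more in either library were kept, and log2 ratios used a pseudocount of 1. The second scaling was the median of ratios over both libraries. Intervals are exact Clopper-Pearson intervals (95%) of the read counts, and a gene with no read in 1 library is given as a bound at 3 reads of that library. Current symbols come from the reference name tables, which matched 13600 names. The arithmetic was tested on simulated data. The software was Python 3.11.15, numpy 2.4.6, pandas 2.3.3, scipy 1.17.1 and matplotlib 3.10.9.

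The genes compared and the 33 gene lists were chosen with earlier results of these data known. Genes were named by a rule (the 10 highest and 10 lowest ratios, the 10 with the most reads in each library, in each list the 3 highest, the 3 lowest and the 2 most abundant, and a list of chosen genes), of which the text gives a part. The 39 sub-groups and all other genes named were chosen after their values were seen. Both samples are separate libraries by their labels, and nothing says how many embryos each holds. Alternatives to the scaling, pseudocount, floor, cutoff and handling of repeated names were computed. Sperm RNA and the methylation files were not used, and a few genes of the lists are not reported here by name.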

Additional observations from a re-analysis of the deposited data

How the results depend on the processing

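The general shift depended on the scaling, and most contrasts between gene lists moved less. A rescaling adds 1 constant to all log2 ratios, which cancels in such contrasts except at low counts. The stability of the contrasts under the scalings was thus fixed in advance and is no check on them. The median log2 ratio of 1.24 became 0.059 with the median of ratios over both libraries, -0.11 with the upper quartile and -0.12 with the median of ratios over the 4 RNA libraries, so its sign turned under the last 2. It was 0.89 with equal totals, 0.85 with equal totals without the epithelial and immune genes, 1.17 with a pseudocount of 5, 1.17 with no floor and 1.31 with a floor of 50. The count of higher genes (5840) became 3545 with the median of ratios over both libraries, 3225 with the upper quartile, 3215 with the median of ratios over the 4 libraries and 3825 with a 4-fold cutoff. The count of lower genes (1338) became 3260, 3565, 3581 and 718 under the same alternatives. Ribosome assembly factors higher (102) numbered 67 with the upper quartile and 66 with the 4-library median of ratios. Ribosomal proteins lower (23) numbered 76 with the 2-library median of ratios, 78 with the upper quartile and with the 4-library one, 48 with equal totals with or without the epithelial and immune genes, and 0 with a 4-fold cutoff. Relative to the median of all genes, the medians of the 27 function lists moved by at most 0.85 on the log2 scale under these alternatives (keratins and claudins, no floor). That of the first zygotic list was -0.08 as deposited and -0.72 with the upper quartile. Marker lists of few genes moved more, the muscle markers to -2.79 and the liver markers to -4.60 with a floor of 50. The scalings over 4 libraries and without epithelial and immune genes, and the 4-fold cutoff for these 2 lists, were chosen after seeing the data. The egg library has fewer reads, which limits the precision of genes near its floor of 5.95 normalized counts. No paired analysis was possible because each stage has 1 library.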
